A study of Mus musculus with 2 samples.

Results

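The expression of 10 genes of B cell adhesion was followed on 2 arrays of wild-type splenic B cells. They were chosen by name and comprised the integrin α chain genes Itgal, Itga4 and Itga6, the β chain genes Itgb1, Itgb2 and Itgb7, the immunoglobulin superfamily ligand genes Icam1 and Icam2, the hyaluronan receptor gene Cd44 and the selectin ligand gene Selplg. A probe set was taken where the platform annotation gave exactly 1 of these symbols and no other, which found 19 of the 20380 probe sets that name 1 gene. They represent 10 of 12393 genes. Both samples were cells positive for surface IgM and IgD, sorted by flow cytometry from the spleens of mice labelled as carrying no modification. The study was designed around the deletion of serum response factor (SRF), a transcription factor of actin and growth response genes, and cells lacking SRF were not analysed here. Replicates 1 and 2 are named in accession order, and where 2 signals are given together the first is that of replicate 1. Strain, age and whether the samples came from separate mice are not given in the sources used here, so the spread between them may be technical.

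Integrins are pairs of 1 α and 1 β chain, and neither chain reaches the cell surface well without a partner. On B cells, LFA-1 (αL with β2) binds the ICAMs, and VLA-4 (α4 with β1) binds VCAM-1 and fibronectin. LPAM-1 (α4 with β7) binds the gut addressin MAdCAM-1. LFA-1 and the α4 integrins help hold B cells in the spleen, and signals from inside the cell through Rap1, talin and kindlin switch integrins to the binding state.

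The deposited values were MAS5 signals, a linear intensity in arbitrary units scaled to the same trimmed mean on both arrays. A signal was read against a floor, the 90th percentile of 86 probe sets for 56 genes restricted to other organs, which was 171 on replicate 1 and 94.9 on replicate 2. Of these 56 genes, 3 were above it on both arrays. Of all probe sets naming 1 gene, 30.9% exceeded the floor on replicate 1 and 40% did so on replicate 2. The 3′ to 5′ signal ratio of the control mRNA for Actb was 3.57 on replicate 1 and 8.15 on replicate 2. For Gapdh it was 1.31 and at least 8.69, since its 5′ signal on replicate 2 was below the floor and was set to it. Whether this had a part in any difference below was not tested. Probes differ in affinity, so a signal is set against the floor and its own value on the other array alone, and no order of abundance among the 10 genes is given.

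Of the 10 genes, 7 had a probe set above the floor on both arrays: Itgb2, Itgb7, Itga4, Icam1, Icam2, Cd44 and Selplg. Itgal, Itga6 and Itgb1 had none. Among all genes the share was 29.7%. By probe set, 7 of the 19 were above the floor on both arrays, against 23.9% of all probe sets naming 1 gene, 2 were above it on replicate 2 only and 10 on neither array. The genes were picked with earlier results of these arrays known, so the counts describe them and single nothing out.

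**Figure D1:**
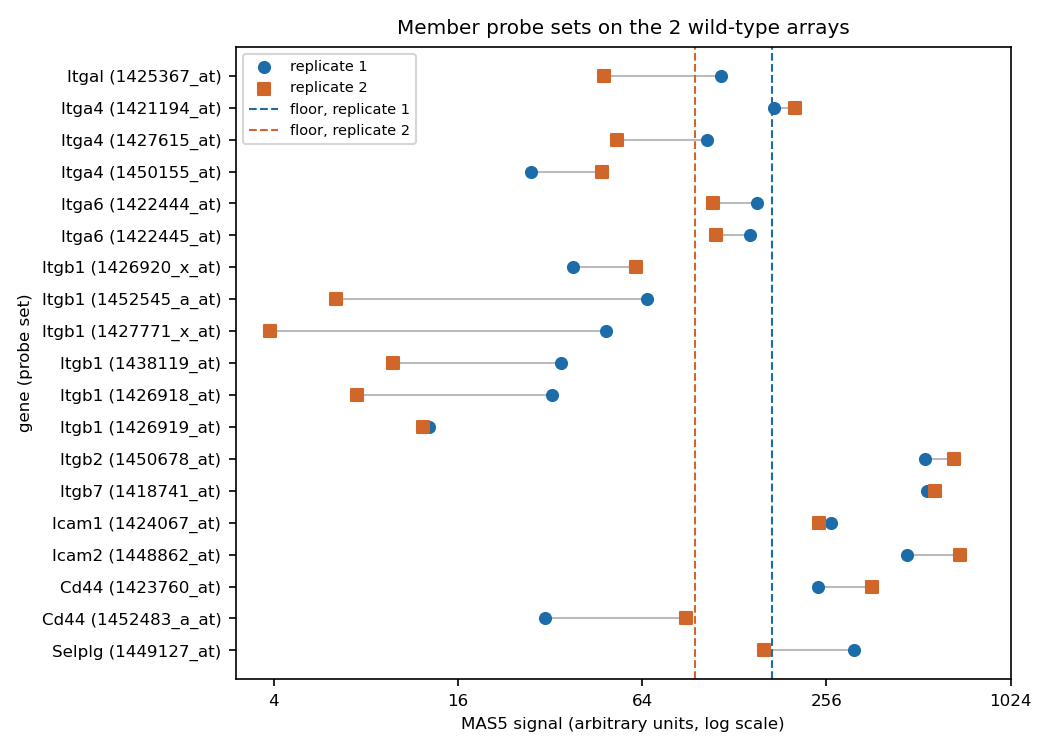
The signal (x axis, arbitrary units, log scale) of each of the 19 probe sets of the 10 genes (y axis) is plotted for replicate 1 (circles) and replicate 2 (squares), with the floor of each array as a dashed line. Of these, 7 lie to the right of the floor on both arrays, and the 6 probe sets of Itgb1 lie to the left of both floors.

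The β chain genes fell on both sides of the floor. Itgb2, which encodes CD18, the common β chain of the leukocyte integrins, had signals of 537 and 670.4, averaging 604 ± 94.5 (SD, n = 2). Its single probe set was 3.15 times the floor on replicate 1 and 7.06 times on replicate 2. Itgb7, which encodes the β7 chain of the gut-homing integrin, had signals of 548 and 578, averaging 563 ± 21.8 (SD, n = 2). The Itgb7 signals differed by 1.06-fold, the smallest difference of the 7 probe sets above the floor as deposited. Replicate 2 was the higher for both genes as deposited. The 2 scalings tried disagreed on the order. Replicate 1 was the higher after quantile normalization, with log2 differences of -0.16 for Itgb2 and -0.36 for Itgb7. Replicate 2 was the higher when each array was centred on its median, with 0.94 and 0.69.

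Itgb1, the β1 chain gene that completes VLA-4 and the laminin receptor with α6, was below the floor with all of its 6 probe sets on both arrays. On replicate 1 they ranged from 12.9 to 66.5, with a median of 36.4. On replicate 2 they ranged from 3.9 to 61.1, with a median of 8.65. The highest of them also lay below the median of all probe sets naming 1 gene, which was 103 on replicate 1 and 67.5 on replicate 2. Of 108 genes with 6 or more probe sets, 27 had none above the floor on both arrays, or 25%. At such signals the order of the arrays is not read: 5 probe sets were higher on replicate 1 and the brightest, whose identifier ends in _x_at, was higher on replicate 2, with 38.0 and 61.1. A signal below the floor does not show that the transcript was absent.

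The start regions of Itgb7 and Itgb1 are shown because both chains pair with α4 and their genes lay on opposite sides of the floor, and that of Icam1 because its induction by NF-kB is well known. Each runs from 180 bases before to 20 bases after the annotated start, 5′ to 3′ on the gene's strand, from RefSeq on GRCm38.p6. Such sequences were at hand for 5 of the 10 genes, these 3 with Itga4 and Cd44. Capitals mark GAGGAAGT (bound by the ETS factor PU.1) and CACCC (bound by Krüppel-like factors) in Itgb7, GGGCGG (the GC box) and CACCC in Itgb1, and GGAAATTCC (an NF-kB motif) and TATAAA in Icam1. A motif on the other strand stands as its reverse complement.
Itgb7, chr15:102231916-102232115, minus strand: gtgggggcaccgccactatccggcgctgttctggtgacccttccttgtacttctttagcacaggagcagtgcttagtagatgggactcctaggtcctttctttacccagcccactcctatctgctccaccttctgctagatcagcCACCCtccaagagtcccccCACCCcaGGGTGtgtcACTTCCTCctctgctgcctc
Itgb1, chr8:128685474-128685673, plus strand: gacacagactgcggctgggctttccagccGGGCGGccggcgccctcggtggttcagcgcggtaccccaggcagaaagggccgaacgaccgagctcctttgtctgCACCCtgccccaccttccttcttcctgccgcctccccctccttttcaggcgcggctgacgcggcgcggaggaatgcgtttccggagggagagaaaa
Icam1, chr9:21015760-21015959, plus strand: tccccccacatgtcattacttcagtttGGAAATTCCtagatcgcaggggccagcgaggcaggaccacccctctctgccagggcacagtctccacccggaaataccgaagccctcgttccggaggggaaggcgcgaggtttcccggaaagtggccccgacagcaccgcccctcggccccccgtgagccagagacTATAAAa

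Both strands were searched, and no marked motif overlapped another. In Itgb7 the GAGGAAGT match lay on the other strand at bases 1 to 8 after the start, and CACCC occurred 3 times. Among 32851 start regions of the same length, 2.12% held GAGGAAGT, and of the 5 members' regions only that of Itgb7 did. The GC box occurred in 31.8% of all regions and in 4 of the 5, Itgb7 being the exception, and CACCC occurred in 45.2% and in 4 of the 5, without Cd44. The 9 letters of the NF-kB motif were in 0.259% of regions and, of the members, in Icam1, at bases -153 to -145. This motif was chosen after the sequence had been read. TATAAA, held by 9.46% of regions, was found in Icam1, at bases 14 to 19 after the annotated start. The CArG box, the motif that SRF binds, was in 1.15% of regions and in 0 of the 5, which says only that its letters are not in these windows. The matches are letters in the genome and were not measured as sites in these cells.

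Among the α chain genes, 1 of 3 was above the floor on both arrays. Itga4, which encodes α4, the partner of β1 and β7, had signals of 173 and 202 by its brightest probe set, averaging 188 ± 21.0 (SD, n = 2). The signal on replicate 1 was 1.01 times the floor, and with a floor at the 95th percentile, 207 and 119, Itga4 was below it on replicate 1. The other Itga4 probe sets were below the floor on both arrays, with 104 and 52.9 for one and 27.7 and 47.2 for the other.

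Itga6, which encodes the α6 chain of laminin receptors, gave nearly the same values by both of its probe sets. The first had signals of 152 and 109, and the second of 144 and 111.5. Both were above the floor on replicate 2 and below it on replicate 1, where they reached 0.892 and 0.846 of the floor. With the array median as the floor, both counted as above it on both arrays.

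Itgal, which encodes αL (CD11a), the partner of β2 in LFA-1, had signals of 115 and 48.0. Its only probe set was thus below the floor on both arrays, at 0.676 and 0.506 of it. On replicate 1 the signal lay above the array median of 103, and on replicate 2 below the median of 67.5. No other probe set of the table could check the Itgal value, whereas its partner Itgb2 was above the floor on both arrays.

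The ICAM genes, whose products are ligands of LFA-1, were both above the floor on both arrays. Icam2, a ligand that resting lymphocytes and endothelium carry, had signals of 468 and 700.3, averaging 584 ± 164 (SD, n = 2). It was 1.50-fold higher on replicate 2, a log2 difference of 0.58. Icam1, which is induced on activated cells, had signals of 264 and 242, averaging 253 ± 16.2 (SD, n = 2). Its log2 difference was -0.13, and it turned to 0.48 when each array was centred on its median. Each ICAM gene was measured by 1 probe set.

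Cd44, which encodes the receptor for hyaluronan, had signals of 240.5 and 360 by its brighter probe set, averaging 300.2 ± 84.5 (SD, n = 2), again 1.50-fold higher on replicate 2. Its second probe set was below the floor on both arrays, with 30.7 and 89.1. Selplg, which encodes PSGL-1, a ligand of selectins, had signals of 316 and 160.5, averaging 238 ± 110 (SD, n = 2). It was 1.97-fold higher on replicate 1, the largest difference of the 7 probe sets as deposited and after quantile normalization but the smallest after median centring. It stayed higher there under both scalings tried, by log2 differences of -0.88 after quantile normalization and -0.36 after centring on the median.

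**Figure D2:**
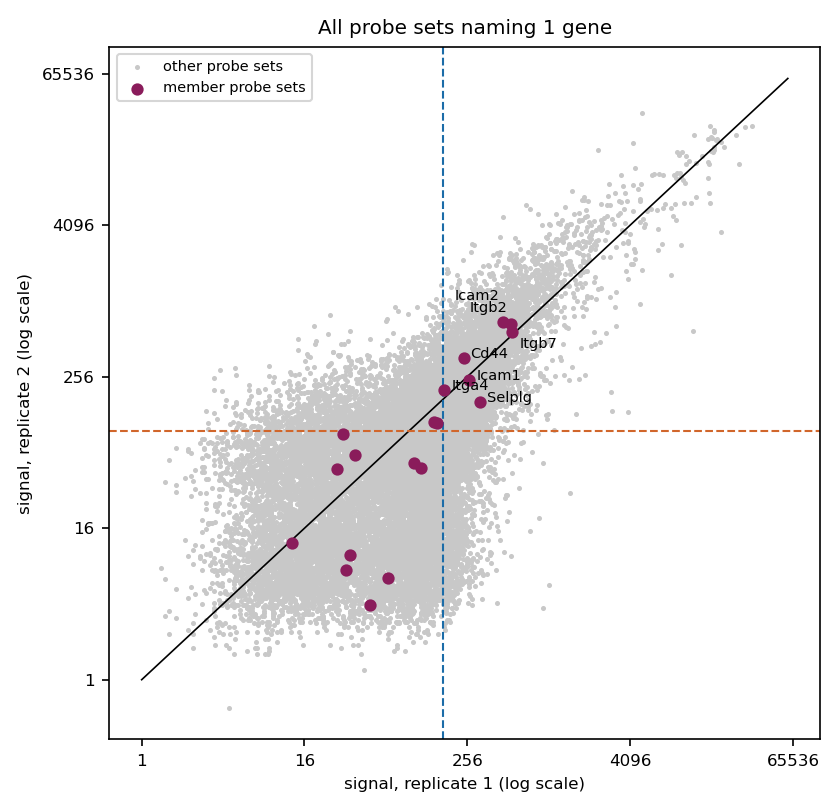
Each point is a probe set naming 1 gene, with its signal on replicate 1 (x axis) and replicate 2 (y axis), both in arbitrary units on log scales; the diagonal marks equal signals and the dashed lines the floors. The members (large points) named are the 7 above both floors, and all lie within 2-fold of the diagonal as deposited, while those below both floors spread widely.

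Between the samples none of the 7 probe sets above the floor differed by more than 2-fold. All genes together had 4870 probe sets above both floors, of which 14.1% exceeded a 2-fold difference with replicate 2 higher and 12.4% with replicate 1 higher. The members' log2 differences, replicate 2 minus replicate 1, ran from -0.98 for Selplg to 0.58 for Icam2 and Cd44, with a median of 0.23 against -0.01 for all. After quantile normalization the medians were -0.09 and -0.09, after median centring 0.84 and 0.60. Replicate 2 was higher for 5 and replicate 1 for 2, counts that became 3 and 4 after quantile normalization and 6 and 1 after centring on the median. Centring also put Icam2 and Cd44 over 2-fold higher on replicate 2, each by 2.29-fold. It moved the median log2 difference of all probe sets naming 1 gene from -0.32 to 0.29, and quantile normalization moved it to 0.04. The SD of log2 signal, pooled as the root mean square of the SDs of single probe sets, was 0.65 for all probe sets above the floor and 0.36 for the 7 members. With 2 samples of 1 group there is no contrast to test, and no p-value was computed.

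**Figure D3:**
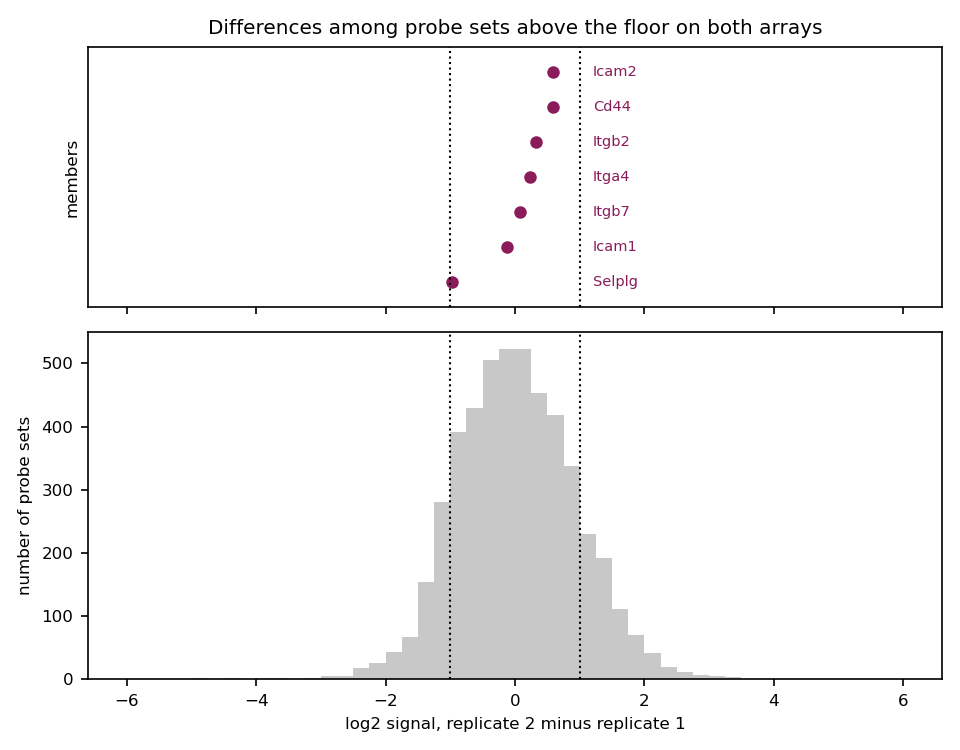
For all genes' probe sets above both floors, the lower panel gives their number by their log2 difference, replicate 2 minus replicate 1 (x axis), and the upper panel marks the 7 member probe sets on the same axis, ordered from Selplg at -0.98 to Icam2 at 0.58. All 7 lie between the dotted lines at 2-fold as deposited; after median centring Icam2 and Cd44 pass 2-fold.

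For 4 of the 10 genes more than 1 probe set was on the array. Cd44 and Itga4 each had 1 probe set above both floors and others not, whereas Itga6 and Itgb1 had none. Of 4956 genes with 2 or more probe sets, 34.4% were split in this way. The 6 other genes, Itgal, Itgb2, Itgb7, Icam1, Icam2 and Selplg, rest on 1 probe set each.

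None of the other integrin chains measured was above the floor on both arrays, 0 of 11 α chain genes and 0 of 4 β chain genes, so that Itga4, Itgb2 and Itgb7 were the integrin genes above it. On replicate 1 the floor was exceeded by 1 of the other α chain genes and on replicate 2 by 5. Itgav, which encodes the αV chain, had signals of 131 and 233, the latter above the floor. Itga3 exceeded each floor by a different probe set, with 231 and 58.3 for one and 142 and 134 for another. Among the β chains Itgb5 had signals of 155 and 67.7 by its brightest probe set and exceeded the floor on replicate 2 by another, with 96.8 and 99.2. Of the other α chains that pair with β2, Itgax had signals of 148 and 109.9, above the floor on replicate 2 only, and Itgam had 29.2 and 48.8, below both floors. Itga3, Itgax and Itgam were named after their values were seen.

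Of 21 measured genes that regulate integrin activation, activators and inhibitors together, 14 were above the floor on both arrays, or 66.7%. They included Cytip, an inhibitor of LFA-1 adhesion, at 3821 ± 1504, the small GTPase gene Rap1b at 2093 ± 604, Fermt3, which encodes the kindlin of blood cells, at 1516 ± 462, and Rassf5, a Rap1 effector that binds αL, at 1102 ± 625 (SD, n = 2). Of the 14, 10 lay within 2-fold by the brightest probe set, 2 were higher on replicate 2 and 2 on replicate 1. These last 2 counts were 0 and 2 after quantile normalization and 6 and 0 after median centring, which put Cytip, Rap1b, Fermt3 and Rap1a over 2-fold too. Rassf5 and Sharpin, an inhibitor that binds α chain tails, were higher on replicate 2, by 2.34-fold and 2.48-fold, and by 1.50-fold and 1.80-fold after quantile normalization. Rasgrp2 and Rapgef1, exchange factors of Rap1, were higher on replicate 1, by 2.76-fold and 2.34-fold, and by 1.80-fold and 1.53-fold after median centring. All 3 probe sets of Rasgrp2 were higher on replicate 1. A second probe set of Sharpin gave 569 and 599, and that of Rassf5 gave 339 and 545, both within 2-fold as deposited. The probe sets of Rap1b were in part opposed, with 1666 and 2520 by the brightest, 933 and 259 by another and 232 and 333 by the last. So were those of Fermt3, with 1190 and 1843 by the brightest and 513 and 437 by another above both floors. Its last probe set, above the floor on replicate 2 only, gave 58.6 and 352.

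Of 20 measured adaptors and kinases that act downstream of bound integrins, 11 were above the floor on both arrays. Pxn, which encodes paxillin, a binding partner of the α4 tail, had signals of 328 and 690.3, and its remaining probe sets did not reach either floor. The focal adhesion kinase relative Ptk2b gave 518 ± 1.77, the actin regulator Vasp 433 ± 116 and the kinase Syk 1816 ± 1362 (SD, n = 2). By the brightest probe set, Syk, Pxn and Lims1, a partner of integrin-linked kinase, were over 2-fold higher on replicate 2, and Zyx, which encodes zyxin, on replicate 1. A second probe set above both floors was within 2-fold as deposited for Syk, with 564 and 819, and for Lims1, with 196 and 306. After quantile normalization Pxn was within 2-fold, and after median centring Zyx was.

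Of 10 measured counter-receptors and ligands outside the members, 2 were above the floor on both arrays. F11r, which encodes JAM-A, a ligand of LFA-1, had signals of 198 and 103, and Lama5, a laminin chain gene, of 396 and 124. Vcam1 and Madcam1, the ligands of the α4 integrins on stromal and endothelial cells, gave 97.6 and 147, and 85.9 and 89.5, named after their values were seen. Of 18 measured genes for selectins and for the modification or anchoring of PSGL-1 and CD44, 6 were above it, all within 2-fold as deposited, and 5 after median centring, without Msn. The linkers of CD44 and PSGL-1 to actin, Msn and Ezr, gave 1322 ± 306 and 945 ± 138 (SD, n = 2). A second probe set of Msn had signals of 378 and 9.8. The sulfotransferases Tpst1 and Tpst2, which modify PSGL-1 for selectin binding, gave 370 ± 71.8 and 293 ± 47.4 (SD, n = 2).

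**Figure D4:**
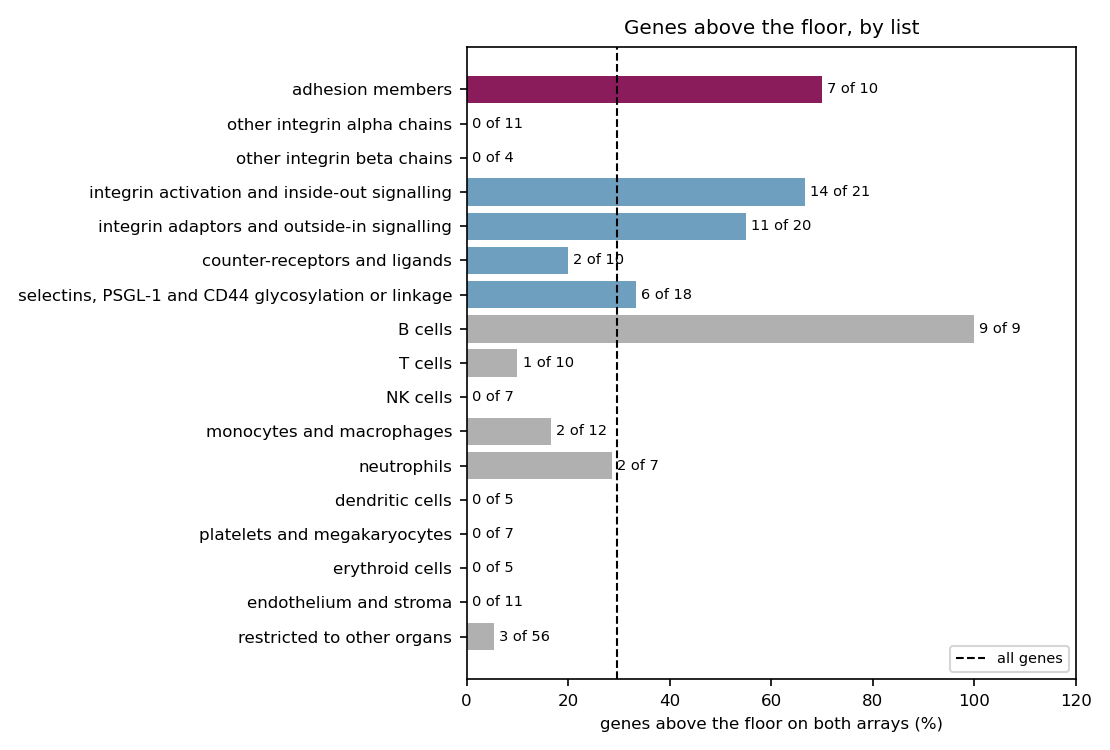
Bars give the percentage of each list's measured genes that were above the floor on both arrays, with the counts beside them; the dashed line is the 29.7% of all genes. The adhesion members reached 7 of 10, the activation list 14 of 21 and the other integrin chains 0 of 11 and 0 of 4.

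Itgb2, Cd44 and Selplg are also expressed by T cells and myeloid cells, so markers of other cell types are given beside them. All 9 measured B cell markers were above the floor on both arrays, but not all at similar signals. Ms4a1, which encodes CD20, had signals of 3394 and 6347, the inhibitory coreceptor gene Cd22 4313 and 5302, the antigen receptor chain gene Cd79b 2657 and 3129 and the adaptor gene Blnk 1856 and 2095, each by its brightest probe set. A second probe set of Cd22, also above both floors, was opposed, with 889 and 274. Cd79a, the gene of the partner of Cd79b, had 2931 and 192 by its only probe set, 15.3-fold higher on replicate 1, and 17.6-fold and 9.98-fold after quantile normalization and median centring. The complement receptor gene Cr2 had 940.3 and 2275, 2.42-fold higher on replicate 2 and 1.50-fold after quantile normalization. Over 8 lists of other cell types, 5 of 64 genes were above the floor on both arrays, or 7.81%. These were Zap70 of the T cell list (1 of 10), Csf1r and Lyz2 of the monocytes and macrophages (2 of 12), and Ngp and S100a9 of the neutrophils (2 of 7). For Zap70 and Csf1r only 1 probe set was above both floors. The other of Zap70 had 37.8 and 43.5. The others of Csf1r had 208.6 and 15.2, and 23.2 and 96.7. The summed signal of the T cell list was 1079 and 512, that of the monocytes and macrophages 1084 and 976, and that of the neutrophils 971 and 948. Most genes in these sums did not pass both floors, and Zap70 alone gave 476 and 268 of the T cell sum. The lists for NK cells, dendritic cells, platelets, erythroid cells and endothelium with stroma had 0 genes above both floors, of 7, 5, 7, 5 and 11. Apart from Itgax, their genes with the highest mean signal were Prf1 with 129 and 133, Gp5 with 247 and 71.0, Gata1 with 291 and 40.6 and Col1a2 with 140.1 and 99.9. The T cell receptor component Cd3e, a choice made with its values known, had signals of 31.1 and 16.1. As deposited, Selplg was higher on replicate 1, and Itgb2 and Cd44 were higher on replicate 2. The sums of the T cell, monocyte and macrophage, and neutrophil lists were higher on replicate 1 as deposited, the last by 971 against 948 only. So was the sum over the genes restricted to other organs, 4876 and 2563. Sums were not taken under the other scalings. Single genes went both ways. S100a8, the neutrophil gene with the highest mean, had 164 and 450, above the floor on replicate 2 only, and Ltf had 203 and 8.5. Among the monocyte and macrophage genes, C1qb had 16.5 and 137 and Cd14 had 135 and 17.5. The part of other cells in the members' signals was not tested. In a sorted bulk sample, fewer cells expressing a gene and less RNA per cell cannot be told apart.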

How the data were processed

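The deposited table holds 1 linear signal intensity per probe set and array, made by the authors with MAS5 per the submitters' processing notes (version and parameters are not given in the sources used here). Each array had been scaled, with a 2% trimmed mean of 150.0 on replicate 1 and 150.1 on replicate 2. Detection calls were not used here, and with 2 arrays the precision is limited by their number. Per the labels, cRNA was made from 6 µg of total RNA. Of 22690 probe sets, 64 controls, 691 naming several genes and 1555 unnamed here were left out. Symbols came from the platform annotation, and none changed among 20351 probe sets found in RefSeq (GRCm38.p6) by Entrez identifier.

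For 1 value per gene, the probe set with the larger mean log2 value was taken, and a gene counted as above the floor if any of its probe sets was. All member genes are named with every probe set. Of other lists, up to 4 genes above the floor with the highest mean and those over 2-fold apart are named, examples where many, or else the highest. The members and lists were chosen with earlier results of these data known. Python 3.11.15 and pandas 2.3.3 were used. The calculation of log2 differences was tested on simulated data, without the floor and with less spread than between these arrays. The alternatives were other floors or none, quantile normalization, median centring, log2(signal + 32), leaving out classes of probe sets or 1 array, and means over a gene's probe sets.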

Additional observations from a re-analysis of the deposited data

How the results depend on the processing

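As deposited, 7 member probe sets exceeded both floors, a count that was 6 with a 95th-percentile floor and 9 with the array median as floor. On 1 array alone it ranged from 7 (replicate 1) to 9 (replicate 2). Quantile normalization, median centring, log2(signal + 32) and leaving out probe sets ending in _x_at, with or without those ending in _s_at, left it at 7. The count over 2-fold higher on replicate 2, 0 as deposited, was 2 after median centring and 1 with no floor. The count higher on replicate 1, 0 as deposited, was 5 with no floor, which takes in Itgal and 4 probe sets of Itgb1. For the probe sets of all genes the counts, 688 and 603, were 432 and 560 after quantile normalization and 1648 and 132 after median centring. Of the over 2-fold differences, 53.3%, 43.5% and 92.6% were then higher on replicate 2. The members' median log2 difference, 0.23 as deposited, was -0.09 after quantile normalization and -0.13 with no floor. Of 87 values for single member genes, 83 moved by less than the pooled SD. The other 4 were all of Itgb1, whose log2 difference of 0.69 became 1.40 after quantile normalization, -3.38 without _x_at probe sets and -1.72 as the mean over its probe sets. Of the 87, 7 changed sign. Many of the 83 could not move, since a change of floor leaves a log2 difference as it is. Leaving out or averaging probe sets does the same for the genes with 1 probe set. Median centring shifts all genes by the same amount, which was below the pooled SD. No paired analysis was possible because there is 1 group. Without a second group and with 2 arrays, no difference between conditions can be tested.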
